A study of Homo sapiens and Mus musculus with 12 samples.

Results

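The genes described here are those measured both in mouse NK cells that lack Ehmt2 and in human NK92MI cells given an EHMT2 inhibitor, and the question put to them is whether gene loss and inhibitor moved the same gene in the same direction. There were 22021 genes in the mouse table and 18304 in the human one. Joining them by upper-cased symbol gave 11203 pairs, of which 8254 had a mean CPM (the share of a library's counts scaled to a common depth, normalised by trimmed mean of M-values) of 1 or more in both tables. That mean ran over all libraries of a table, so high values in 1 group alone could keep a gene. Of the other pairs, 753 fell under this minimum in the mouse table alone, 948 in the human table alone and 1248 in both. ARVCF, at 1.0 CPM on average in the human table, was the member nearest to the minimum on the inside, and COL15A1, with 0.999 CPM in the mouse, the nearest outside it. A further 13 symbols present in both tables were left unpaired because a table listed them more than once, and a shared symbol was taken as the only evidence that a mouse and a human gene correspond.

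Groups were as follows. WT were splenic CD3-NK1.1+ NK cells sorted from Ehmt2 flox/flox mice and KO were the same cells from Ehmt2 flox/flox;Ncr1-iCre mice, in which Cre is driven from the locus of the NK receptor Ncr1, so both groups carried the floxed alleles. The animals were age- and sex-matched adults on the C57BL/6J background. NK92MI, an established line from a human NK lymphoma that was engineered to supply itself with IL-2, was given either BIX-01294 (BIX), which blocks the catalytic sites of EHMT2 and EHMT1, or the solvent DMSO. Each group had 3 RNA-seq libraries. The sample titles of the KO libraries name EHMT2 while their genotype label reads Ezh2-KO, and the titles were followed. The study states a dose and a duration of BIX for its functional assays of NK92MI, and whether the sequenced cells were treated alike is not given in the sources used here. Species, cell source, gene loss during NK development against drug exposure in culture, and loss of the protein against a block of its enzyme activity all differed between the experiments and cannot be told apart.

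EHMT2, also called G9a, pairs with EHMT1 and places mono- and dimethyl marks on lysine 9 of histone H3, a modification found at silent genes. NK cells kill by releasing perforin and granzymes from lytic granules, and they secrete IFN-γ, TNF and chemokines once their receptors or cytokines engage them. As they mature they raise the transcription factor T-bet and surface KLRG1 and lose progenitor features.

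Library totals were 25891680 to 37438868 counts in mouse and 16579469 to 17165446 in human. WT replicate 2 had the lowest total and stood apart from the other WT libraries in cell markers. KO replicate 1 stood apart from the other KO libraries. Its B cell list summed to 5103 CPM, against 2643.5 and 2601 in KO replicates 2 and 3. Its neutrophil list summed to 296 CPM, against 83.2 and 82.4. The summed CPM of the macrophage and monocyte list was 12767, 4406 and 8780 in WT replicates 1, 2 and 3, and 4070, 2300 and 3115 in the KO replicates in the same order. The summed CPM of the mouse pan-NK list was 5464, 9244 and 5730 in WT, and 10386, 12039 and 11951 in KO. Thus every KO library held more NK transcripts than every WT library. The macrophage, B cell, and erythroid and platelet sums were lower in every KO library than in every WT library. The neutrophil, dendritic cell, and T cell and ILC1 sums overlapped between the groups. Of 97 markers of other cell types tested in the mouse, 86 had a negative KO change and 31 were called lower, with a median log2 fold change of -1.64. Of the B cell list 20 of 20 were negative, of the macrophage list 23 of 24, of the neutrophil list 15 of 16, of the dendritic cell list 12 of 13 and of the erythroid and platelet list 10 of 10, whereas 8 of the 14 T cell and ILC1 markers were not. In NK92MI the macrophage list summed to 6.43 to 13.0 CPM and the neutrophil list to 0.705 to 1.75 CPM. The pan-NK list defined by mouse symbols summed to 4511 to 4831 CPM in DMSO and 5866 to 7276 CPM in BIX. In bulk samples such as these, fewer cells of a type and less RNA per cell cannot be told apart.

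EHMT2 itself was lower in both experiments. Ehmt2 (mouse GRCm38, chromosome 17, 34898469 to 34914052) stood at 275, 284 and 285 CPM in WT and at 171, 143 and 137 CPM in KO. EHMT2 (human GRCh38, chromosome 6, 31879759 to 31897698) stood at 57.1, 61.6 and 54.3 CPM in DMSO and at 40.4, 39.3 and 35.8 CPM in BIX. The groups overlapped in neither species. The log2 fold change was -0.91 ± 0.10 (SE) in KO, with an adjusted p of 0.0162 by edgeR, and -0.58 ± 0.08 in BIX, with an adjusted p of 0.000101. The KO change was not shown to differ from the BIX change (difference -0.32 ± 0.13, adjusted p = 0.0618). Counts covered the whole gene, so they do not show which exons remained in KO, and transcripts of the other leukocytes in the gate enter this value too. EHMT1, the partner enzyme, changed by 0.09 ± 0.10 in KO and by -0.17 ± 0.07 in BIX, and passed the test in neither. EZH2, the enzyme named by the genotype label, stood at 41.6 to 45.8 CPM in WT and 35.0 to 39.5 CPM in KO, a change of -0.23 ± 0.09 that was not called (adjusted p = 0.116).

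Across the 8254 pairs the changes did not run together. Pearson's r between the log2 fold changes of KO and of BIX was -0.05 and Spearman's rho -0.02, and 4079 pairs (49.4%) had the same sign. These values describe genes of libraries that share no samples, and carry no p because genes are not replicates. The changes were of similar spread, with an SD of 0.405 in KO and 0.391 in BIX. The quartiles were -0.148 and 0.203 in KO and -0.204 and 0.212 in BIX, beside a median SE of 0.113 and 0.086. Noise in either table weakens r and the same-sign share, and how far it did so was not tested. Leaving out the pairs on lists of other cell types kept 8233 pairs, with r at -0.05. So few pairs were removed that r could hardly move.

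**Figure D1:**
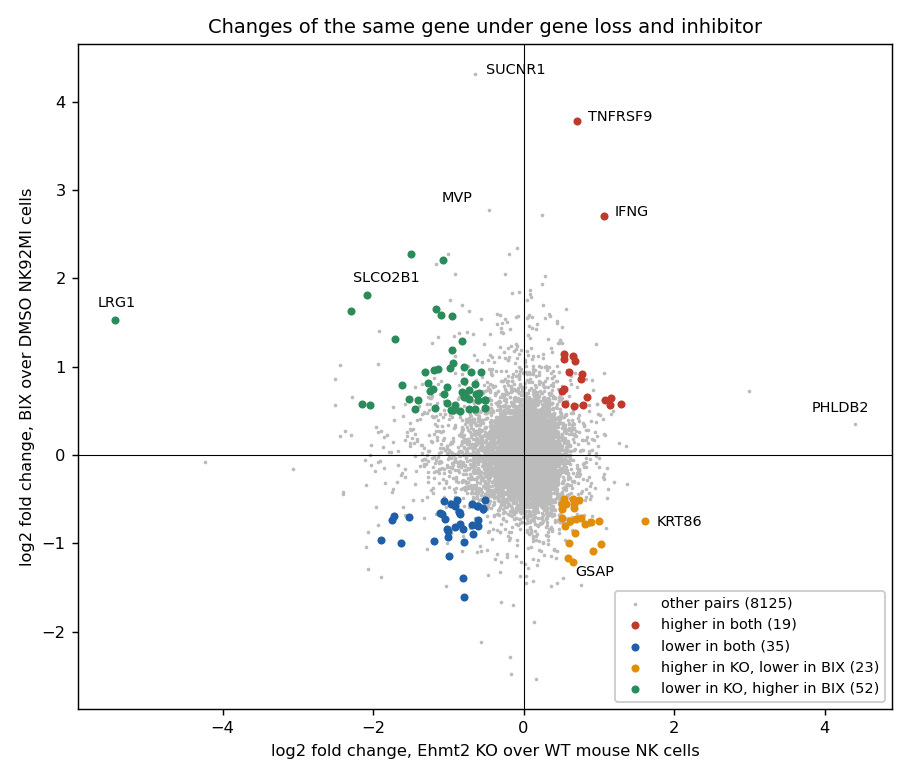
Each point is 1 of 8254 gene pairs; the x axis is the log2 fold change of Ehmt2 KO over WT and the y axis that of BIX over DMSO, with 3 libraries a group. Coloured points are the 129 pairs called in both tables, and the 4 colours fill all 4 quadrants, with the 52 pairs lower in KO and higher in BIX the most numerous.

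A gene was called when its adjusted p was under 0.05 and its log2 fold change beyond 0.5 in either direction. Across each whole table, 2.82% of the 13189 mouse genes tested were called higher in KO and 6.69% lower, and 7.57% of the 12727 human genes tested were called higher in BIX and 7.34% lower. Among the pairs, 183 (2.22%) were higher in KO, 347 (4.2%) lower in KO, 584 (7.08%) higher in BIX and 462 (5.6%) lower in BIX. Both tables called 129 pairs, 54 in the same direction and 75 in opposite directions. Of the 183 pairs higher in KO, 10.4% were higher in BIX and 12.6% were lower in BIX. Of the 347 lower in KO, 10.1% were lower in BIX and 15% were higher in BIX. Pairs called in KO were thus called in BIX above the background share in both directions, and more of them went the opposite way than the same way, though no test was made of these shares. The difference between the changes was also tested for each pair directly, in one edgeR fit over the 12 libraries. The KO change lay above the BIX change in 871 pairs (10.6%) and below it in 967 (11.7%).

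The mouse calls rested on few libraries, as the plot of calls by left-out library shows. Without KO replicate 2 or without KO replicate 3 no mouse gene was called by edgeR, so all 4 direction classes were empty. The pairs higher in both, lower in both, higher in KO with lower in BIX, and lower in KO with higher in BIX numbered 2, 3, 3 and 3 without WT replicate 1, and 0, 0, 0 and 1 without WT replicate 3. Without KO replicate 1 they rose to 25, 40, 32 and 79. They numbered 50, 59, 65 and 100 without WT replicate 2, and this set kept 19, 34, 23 and 50 of the main 19, 35, 23 and 52. With all libraries, 2080 mouse genes were higher and 2639 lower at an unadjusted p under 0.05, but none was called at an adjusted p under 0.01, whereas DESeq2 at 0.01 called 401 higher and 1099 lower. The direct test of the difference did not move this way: with any 1 mouse library left out it called 718 to 1073 pairs above and 837 to 1156 below. It estimated each gene's variation over both species together, while the biological coefficient of variation was 18.2% in mouse and 7.56% in NK92MI. With weights per species (limma-voom) 863 were above and 938 below. Of the main calls, 321 above were pairs lower in BIX and 402 below were pairs higher in BIX. This steadiness therefore does not show that the KO changes are firm.

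**Figure D2:**
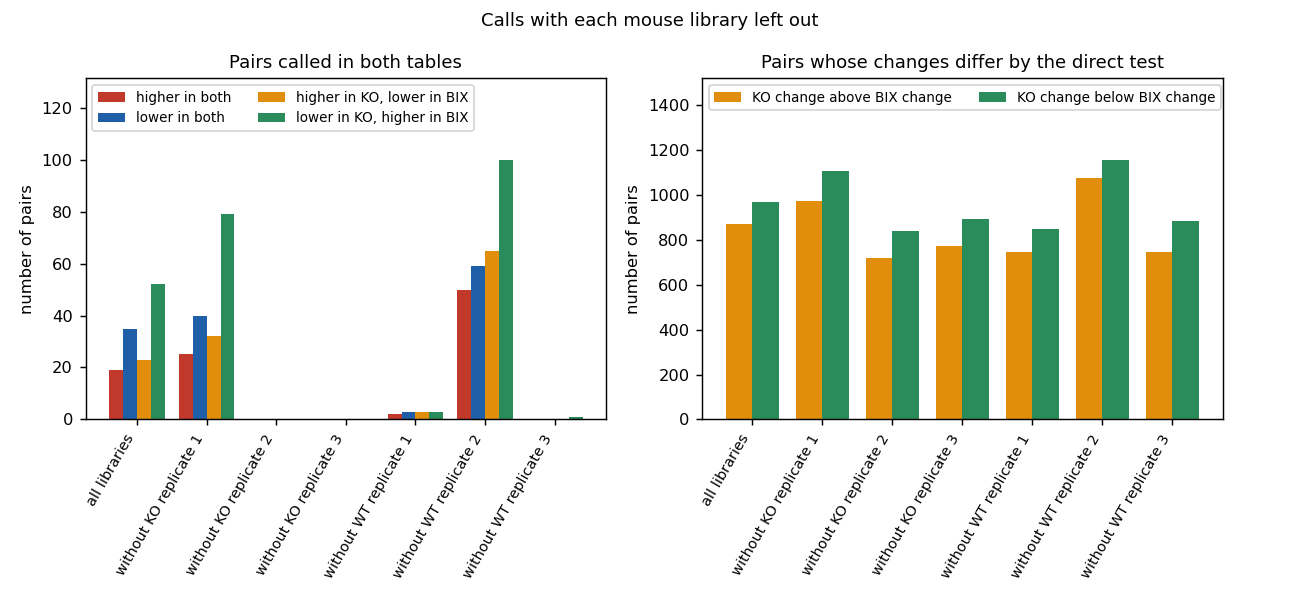
Bars give the number of pairs with all libraries and with each of the 6 mouse libraries left out; the left panel counts pairs called in both tables in each of 4 directions and the right panel pairs whose KO and BIX changes differ by the direct test. The left bars fall to 0 without KO replicate 2 or KO replicate 3 and rise to 50, 59, 65 and 100 without WT replicate 2, while the right bars stay between 718 and 1156.

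Genes higher in both experiments included several of killing and secretion. The 19 pairs were B3GNT7, B4GALT5, BHLHE40, CCL4, CCND2, CD28, CDC20B, DDX43, GBP4, GZMA, IFNG, ILDR1, KLRD1, LY9, S1PR2, SERPINB9, TMEM198, TNFRSF9 and TNFSF14. In all 19 the groups were separate in mouse and in NK92MI, which selection by the calls makes likely. GZMA, a granzyme that is stored in lytic granules and cleaves proteins in the target cell, stood at 1162, 1839 and 1249 CPM in WT and at 2648, 2347 and 2260.0 CPM in KO. It stood at 1685, 1751 and 1737 CPM in DMSO and at 3346, 2808 and 3592 CPM in BIX. Every KO library was above every WT library and every BIX library above every DMSO library, with changes of 0.77 ± 0.19 (adjusted p = 0.0451) and 0.91 ± 0.08 (adjusted p = 1.51e-06). SERPINB9, the inhibitor that shields a killer cell from its own granzyme B, ranged from 122 to 165 CPM in WT, 216 to 257 in KO, 123 to 135 in DMSO and 228 to 242 in BIX. Its changes of 0.76 ± 0.13 and 0.86 ± 0.06 were not shown to differ by the direct test (difference -0.09 ± 0.15, adjusted p = 0.652).

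IFNG, which encodes IFN-γ, rose in both experiments and further in BIX. It stood at 15.9, 25.4 and 16.2 CPM in WT and at 39.3, 43.0 and 38.3 CPM in KO, a change of 1.07 ± 0.19 (adjusted p = 0.0279). In NK92MI it stood at 31.1, 28.4 and 35.0 CPM in DMSO and at 259, 165 and 193 CPM in BIX, a change of 2.71 ± 0.14 (adjusted p = 1.9e-08). The difference of -1.63 ± 0.25 passed the test (adjusted p = 0.000451). CCL4, a chemokine that draws other leukocytes, was at 33.7 to 40.8 CPM in WT and 46.9 to 59.9 in KO, and at 209.6 to 241 in DMSO and 363 to 486 in BIX. Its changes were 0.60 ± 0.13 and 0.93 ± 0.09. The human genome holds near-identical copies of CCL4, so the way reads were shared among them is uncertain. TNF, the other main NK cytokine, was called in neither table, at 0.28 ± 0.15 in KO and 0.09 ± 0.22 in BIX.

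Receptors of NK and T cell costimulation were also among the genes higher in both. TNFRSF9 (CD137), a TNF receptor family member that appears on activated NK cells, stood at 37.2, 52.6 and 33.6 CPM in WT and at 57.8, 75.1 and 68.2 CPM in KO. In NK92MI it stood at 5.65, 5.20 and 3.20 CPM in DMSO and at 68.9, 61.9 and 62.8 CPM in BIX. The groups were separate in both tables, but the BIX change of 3.78 ± 0.14 was far above the KO change of 0.71 ± 0.18 (difference -3.07 ± 0.26, adjusted p = 5.32e-06). CD28, the costimulatory receptor for CD80 and CD86, changed by 0.66 ± 0.15 in KO and 1.12 ± 0.11 in BIX, from 24.1 to 33.7 CPM in WT to 38.6 to 51.9 in KO and from 8.59 to 10.6 CPM in DMSO to 20.3 to 21.4 in BIX. KLRD1 (CD94), the partner chain of the NKG2 receptors, stood at 221, 361 and 222 CPM in WT and at 463, 454 and 519.8 CPM in KO. It stood at 20.3, 20.1 and 17.5 CPM in DMSO and at 34, 30.6 and 26.3 CPM in BIX, and its changes of 0.84 ± 0.19 and 0.65 ± 0.11 were not shown to differ (adjusted p = 0.573). TNFSF14 (LIGHT), a TNF family ligand, rose by 0.67 ± 0.13 and 0.55 ± 0.06.

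The rest of the genes higher in both served varied roles. BHLHE40, a transcription factor of activated lymphocytes, changed by 0.54 ± 0.13 in KO and 1.08 ± 0.07 in BIX, a difference that passed the direct test (adjusted p = 0.0133). CCND2, the cyclin that drives entry into the cell cycle, changed by 0.55 ± 0.09 and 0.58 ± 0.06. GBP4, an interferon-induced GTPase, changed by 0.54 ± 0.13 and 0.74 ± 0.07. S1PR2, a sphingosine-1-phosphate receptor, stood at only 1.48 to 1.92 CPM in DMSO and 3.48 to 3.96 in BIX, with changes of 0.68 ± 0.14 and 1.07 ± 0.23. Of the 19 pairs, the direct test called a difference in 5, which were BHLHE40, IFNG, ILDR1, LY9 and TNFRSF9.

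How far the KO increases exceeded those of NK genes at large bears on these values, since KO libraries were richer in NK transcripts. The median KO change of the 12 mouse pan-NK genes tested was 0.76, and 9 of the 19 pairs higher in both had a KO change above it. Of these pan-NK genes, 2 were themselves among the 19 pairs, so that median is not independent of them. For IFNG the KO change lay 0.32 above that median, for KLRD1 0.08 above and for GZMA 0.01 above. For SERPINB9 it lay 0.01 above, for TNFRSF9 0.05 below, for CCL4 0.15 below and for CCND2 0.21 below. The part of the NK share in these changes was not tested.

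**Figure D3:**
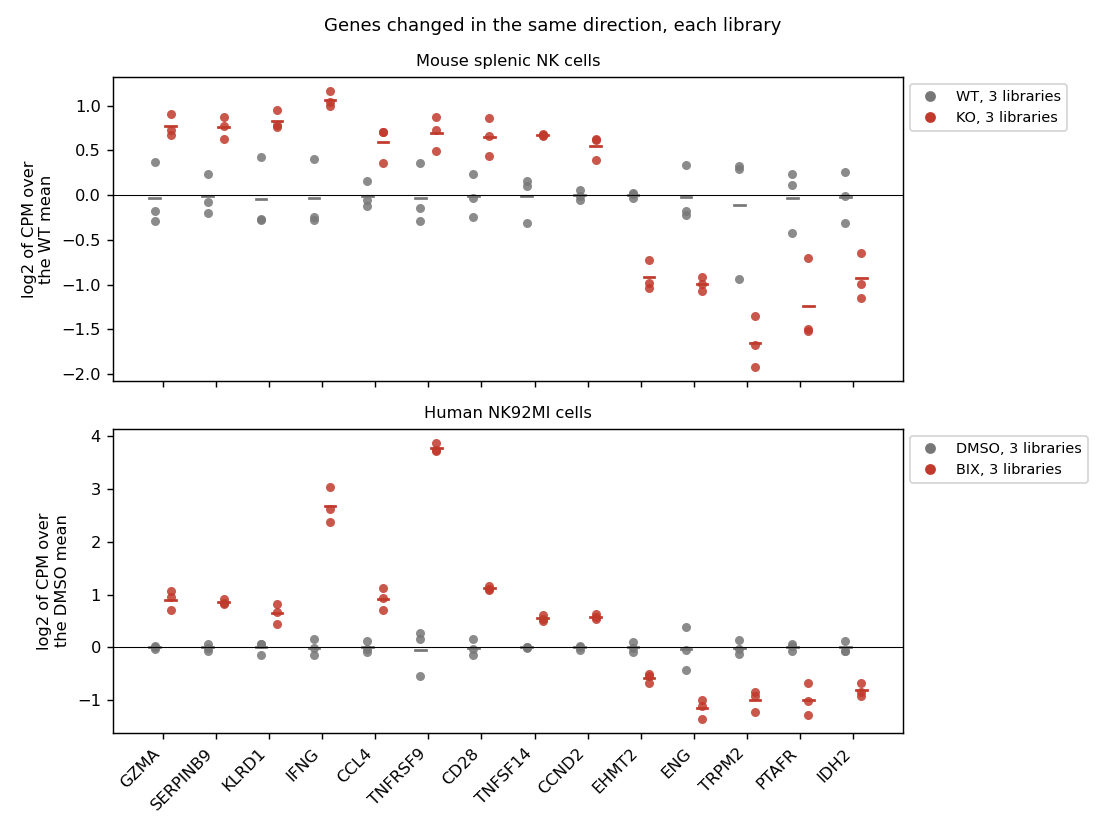
Each dot is 1 library, plotted as log2 of its CPM over the mean CPM of the control group (WT above, DMSO below), and short lines are group means, for 9 genes called higher and 5 called lower in both experiments. Treated and control dots do not overlap for any of the 14 genes in either panel, and the BIX change of TNFRSF9 and IFNG, at 3.78 and 2.71, is the largest in the lower panel.

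Genes lower in both experiments included EHMT2 itself, the TGF-β co-receptor ENG and the mitochondrial enzyme IDH2. The 35 pairs were ADGRG1, ADGRL2, ALDH1L1, AMZ1, CENPV, EHMT2, ENG, HDAC9, IDH2, KIF20A, LANCL2, LIMA1, MACROD1, MEF2C, METTL1, NACC2, NDST1, NR1H3, PIF1, PLXNA1, PLXND1, PRDM16, PSRC1, PTAFR, RPP40, SEMA7A, SLC25A13, SLC48A1, SPC24, ST8SIA6, STYK1, TFAP4, TRPM2, WDR11 and XXYLT1. The groups were separate in both tables for 34 of them, which selection by the calls again makes likely. ENG (endoglin) stood at 33.3, 23.3 and 22.6 CPM in WT and at 14.0, 13.3 and 12.6 CPM in KO, and at 3.96, 2.92 and 2.25 CPM in DMSO and 1.40, 1.53 and 1.18 CPM in BIX. Its changes were -0.99 ± 0.16 and -1.15 ± 0.28. PTAFR, the receptor for platelet-activating factor and known from myeloid cells, changed by -1.19 ± 0.26 and -0.97 ± 0.19. TRPM2, a calcium channel opened by oxidative stress, stood at 111, 46.1 and 108 CPM in WT against 34.6, 23.3 and 27.7 CPM in KO, and changed by -1.63 ± 0.32 in KO and -0.99 ± 0.16 in BIX. For TRPM2 the WT replicate with the lowest macrophage sum was also the lowest in WT.

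IDH2, the mitochondrial isocitrate dehydrogenase, was lower by nearly the same amount in both experiments. It stood at 57.6, 39.0 and 48.1 CPM in WT and at 30.8, 21.8 and 24.3 CPM in KO, and at 237, 272 and 239 CPM in DMSO and 138, 132 and 156 CPM in BIX. The changes of -0.91 ± 0.18 and -0.81 ± 0.08 did not pass the test of a difference (-0.10 ± 0.19, adjusted p = 0.721). KIF20A, a kinesin of late mitosis, changed by -0.67 ± 0.14 and -0.89 ± 0.08. SEMA7A, a membrane-anchored semaphorin, changed by -1.0 ± 0.24 and -0.86 ± 0.07. Of the plexins, receptors for semaphorins, PLXNA1 and PLXND1 were in this class, PLXNA1 at -1.89 ± 0.46 and -0.96 ± 0.31. The PLXNA1 groups overlapped in NK92MI, where DMSO ranged from 2.10 to 3.98 CPM and BIX from 1.18 to 2.25. The direct test called a difference in 2 of the 35 pairs, PLXND1 and MACROD1.

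Opposite changes were more frequent than shared ones, with 75 pairs against 54. The 23 pairs that rose in KO and fell in BIX were ACAP1, ADORA2A, B4GALT7, DUSP2, FBXL8, GIMAP7, GSAP, KCTD11, KLRC3, KRT86, MYLIP, NPRL2, OSBPL5, PGAP3, RAC3, RHBDD1, RHOF, SAMD3, SLA2, SLC25A53, SNAP47, TMC8 and UBASH3A. For all 23 the groups were separate in both tables and the direct test called the difference. Selection by calls in opposite directions makes both outcomes likely, so they add little to the calls. ADORA2A, the adenosine receptor that restrains lymphocytes in adenosine-rich tissue, stood at 65.0, 83.4 and 63.5 CPM in WT and at 128, 132 and 144 CPM in KO, a change of 0.93 ± 0.12. In NK92MI it was scarce, at 1.45, 1.64 and 2.37 CPM in DMSO and 0.731, 0.882 and 0.945 CPM in BIX, a change of -1.08 ± 0.33. ADORA2A met the CPM minimum there through its DMSO values. KLRC3, of the NKG2 receptor family, stood at 34.2, 65.9 and 38.9 CPM in WT and 72.1, 100.2 and 109.9 CPM in KO, and at 7.16, 6.90 and 7.75 CPM in DMSO and 3.17, 5.17 and 2.48 CPM in BIX. Its changes were 1.02 ± 0.26 and -1.01 ± 0.22, and the KLRC genes are close paralogs whose reads could have been split among them.

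Others of the 23 pairs were UBASH3A, SLA2, DUSP2 and MYLIP, while of the 24 cytokine feedback inhibitors paired 1 was in this class and of the 31 receptor adaptors and proximal kinases none was. UBASH3A (STS-2), a phosphatase-like brake on antigen receptor signalling, stood at 23.7, 29.6 and 25.5 CPM in WT and at 38.5, 48.1 and 47.6 CPM in KO. It stood at 61.7, 68.5 and 60.6 CPM in DMSO and at 40.2, 36.2 and 40.3 CPM in BIX. The changes were 0.77 ± 0.13 (adjusted p = 0.0279) and -0.71 ± 0.08 (adjusted p = 1.78e-05), and they differed by 1.48 ± 0.15 (adjusted p = 2.04e-05). SLA2, an adaptor that dampens receptor signalling, changed by 0.69 ± 0.18 and -0.72 ± 0.08. Its KO call, at an adjusted p of 0.0492, was lost with DESeq2 size factors. DUSP2, a phosphatase that switches off MAP kinases, was at 122 to 162 CPM in WT and 224 to 226 in KO, and at 8.03 to 8.70 CPM in DMSO and 4.81 to 6.32 in BIX, with changes of 0.67 ± 0.11 and -0.55 ± 0.15. MYLIP, the ubiquitin ligase that lowers the LDL receptor, changed by 0.57 ± 0.13 and -0.55 ± 0.11.

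The smallest p of the difference with the KO change above the BIX change belonged to GSAP, SLA, PHLDB2, PXN and SNAP47. GSAP, named for γ-secretase activation, changed by 0.59 ± 0.11 in KO and -1.17 ± 0.10 in BIX, a difference of 1.76 ± 0.13 (adjusted p = 3.11e-06). SNAP47, a SNARE protein of membrane fusion, stood at 14.5, 13.7 and 13.4 CPM in WT and 22.8, 22.9 and 23.5 CPM in KO, and at 57.5, 60.5 and 56.6 CPM in DMSO and 41.0, 40.0 and 41.4 CPM in BIX. Its changes were 0.74 ± 0.09 and -0.51 ± 0.07. PXN (paxillin), the focal adhesion scaffold, changed in BIX alone by the calls, at -1.18 ± 0.07 against 0.13 ± 0.09 in KO, and the difference of 1.30 ± 0.11 passed the test. PHLDB2, which binds microtubule ends at the cell cortex, was close to absent from WT, at 0.755, 0.465 and 0.107 CPM, and stood at 8.97, 9.59 and 9.79 CPM in KO. Its KO values alone brought it above the CPM minimum in the mouse. In NK92MI it was already at 55.8 to 65.4 CPM in DMSO and at 72.0 to 80.5 CPM in BIX. The changes were 4.41 ± 0.49 (adjusted p = 0.0162) and 0.35 ± 0.08 (adjusted p = 0.00389, under the minimum fold change).

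Lower in KO and higher in BIX was the largest class. Its 52 pairs included ADAM9, ADGRG6, AGO4, AHR, ALOX5AP, ASAH1, CACNA1E, CADM1, CD74, CD83, CSF1R, CSGALNACT2, DNAJC6, DUSP3, EVI5, F11R, FNIP2, FRAT2, GABARAPL1, IL6ST, JUP, KCNA2, KCND1, LACC1, LITAF, LRG1, MAP3K9, MAST4, MPZL1, MYB, NDRG1, NQO1, OGFRL1, OPTN, PLEKHM3, RGL1, RRM2, SCAMP1, SGMS1, SH3BP5, SLC43A2, SLCO2B1, SNN, STON2, TBXAS1, TFRC, TJP3, TSPAN2, VCAM1, WDFY4 and ZDHHC14. All 52 had separate groups in both tables and a difference by the direct test, which selection by opposite calls makes likely here too. MYB, a transcription factor of progenitor cells, stood at 111, 96.9 and 96.1 CPM in WT and at 51.6, 50.8 and 57.2 CPM in KO. It stood at 15.9, 16.1 and 13.3 CPM in DMSO and at 31.1, 32.9 and 29.2 CPM in BIX. The change of -0.93 ± 0.09 (adjusted p = 0.0162) faced one of 1.04 ± 0.10 (adjusted p = 5.88e-06). OPTN, an autophagy receptor, stood at 24.3, 20.7 and 27.2 CPM in WT and 11.3, 14.2 and 12 CPM in KO, and at 44, 43.1 and 46.0 CPM in DMSO and 97.5, 98.2 and 108 CPM in BIX. Its changes of -0.95 ± 0.14 and 1.19 ± 0.07 differed by -2.14 ± 0.15 (adjusted p = 2.51e-06).

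The class also held AHR, IL6ST, RRM2 and NDRG1. AHR, the receptor for dioxin and tryptophan products, was at 18.2 to 29.1 CPM in WT and 11.9 to 14.6 in KO, and at 14.5 to 20.4 CPM in DMSO and 30.3 to 36.2 in BIX, with changes of -0.80 ± 0.18 and 0.84 ± 0.13. IL6ST (gp130), the shared signal chain of the IL-6 family, changed by -0.73 ± 0.16 and 0.73 ± 0.11. RRM2, the ribonucleotide reductase subunit that makes DNA precursors, stood at 34.9, 35.9 and 30.4 CPM in WT and 20.3, 23.5 and 21.6 CPM in KO, and at 1023, 984 and 1013 CPM in DMSO and 1660.3, 1589 and 1634 CPM in BIX. NDRG1, a gene of hypoxia and iron shortage, changed by -0.56 ± 0.14 and 0.94 ± 0.11.

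Some of these pairs were genes of macrophages or B cells on the mouse side, and 3 of the 52 (CSF1R, VCAM1 and CD74) stood on the lists of other cell types. CSF1R, the receptor that macrophages depend on, stood at 1285, 521 and 856 CPM in WT and at 432, 321 and 398 CPM in KO. In NK92MI it was at 3.26, 2.05 and 2.31 CPM in DMSO and 4.57, 4.53 and 3.66 CPM in BIX. VCAM1, an adhesion molecule of stroma and spleen macrophages, fell from 940.4, 176 and 586 CPM in WT to 149, 65.1 and 133 CPM in KO, while in NK92MI it rose from 1.34 to 1.89 CPM to 4.41 to 5.54 CPM. CD74, the invariant chain of MHC class II, changed by -1.02 ± 0.25 and 0.59 ± 0.08. LRG1, a secreted glycoprotein of neutrophils and liver, spread from 5.82 to 130.2 CPM in WT and lay between 0.219 and 3.37 CPM in KO, a change of -5.42 ± 1.35. In WT the lowest library of CSF1R, VCAM1 and LRG1 was replicate 2, which also had the lowest macrophage sum. The share of other leukocytes in these KO changes was not tested. Without genes on those lists 49 pairs remained in the class. The lists are not complete, as the absence of LRG1 from them shows, so the 49 can still hold genes of other leukocytes.

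**Figure D4:**
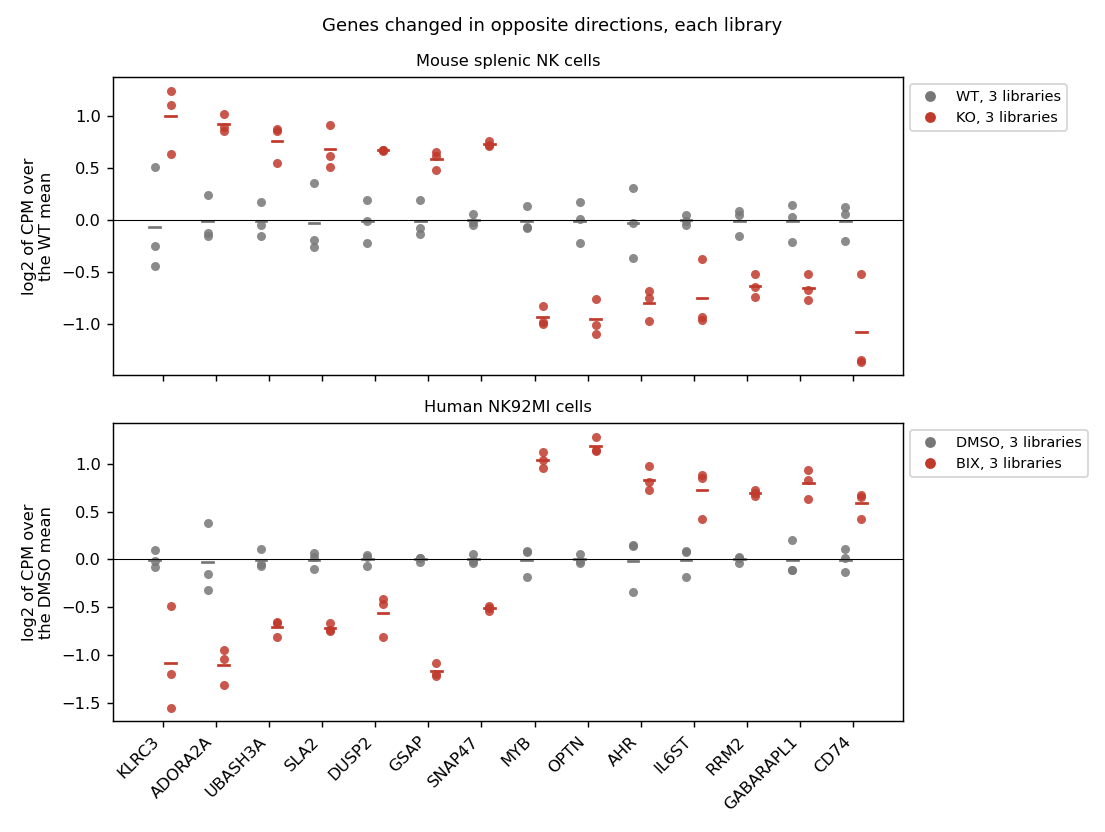
Each dot is 1 library, plotted as log2 of its CPM over the control mean (WT above, DMSO below), with lines for group means, for 7 genes higher in KO and lower in BIX and 7 genes lower in KO and higher in BIX. The dots of MYB lie between 50.8 and 57.2 CPM in KO, below WT, and between 29.2 and 32.9 CPM in BIX, above DMSO, and the order of groups is reversed between the panels for every gene shown.

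Function lists were then read by their counts and medians. Over all pairs the median change was 0.05 in KO and 0.003 in BIX. Of all pairs, 2.22% were called higher and 4.2% lower in KO, and 7.08% higher and 5.6% lower in BIX. The direct test called 10.6% above and 11.7% below. The list counts that follow are to be read beside these shares, and a count near them says little about its list. With DESeq2 size factors or library totals the medians near 0 changed sign, namely the KO medians of the NF-kB, heat shock and other H3K9 enzyme lists and the BIX medians of the exocytosis list and of all pairs, and the other list medians kept theirs.

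Lytic granule proteins leaned higher in both experiments: 8 of 13 were positive in both, and 5 negative in KO and positive in BIX. A call in 1 experiment alone does not show a difference, and the direct test put KO above BIX for 2 and below for 4. Of 13 paired, 5 were higher and 1 lower in KO, 7 were higher in BIX, and GZMA and SERPINB9 were higher in both. The medians were 0.62 and 0.57. CTSW, GZMM and NKG7 were called in KO alone, with KO changes of 0.93, 1.06 and 0.83 and BIX changes of 0.17, 0.24 and 0.28. PRF1 (perforin), which forms the pore, stood at 560.4, 903 and 625 CPM in WT and 941, 1298 and 1206 CPM in KO, and at 549, 592 and 529.7 CPM in DMSO and 814, 749.5 and 911 CPM in BIX. Its changes were 0.72 ± 0.20 (adjusted p = 0.0554) and 0.57 ± 0.08 (adjusted p = 6.37e-05), so that KO fell just short of the call while the groups were separate. GZMB, the granzyme that activates caspases, changed by 0.40 ± 0.15 (adjusted p = 0.0962) and 0.89 ± 0.10 (adjusted p = 1.13e-05). The granule membrane proteins LAMP1, LAMP2 and CD63 and the granule matrix protein SRGN had KO changes of -0.58, -0.71, -0.49 and -0.32 and BIX changes of 0.09, 0.45, 0.60 and 0.61, and the direct test called the difference for all 4. Of these, LAMP1 was called lower in KO and CD63 and SRGN higher in BIX. Macrophage sums were lower in every KO library than in every WT library, and their part in these KO changes was not tested.

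Cytokines and chemokines leaned the same way. Of 11 paired, 3 were higher in KO (IFNG, CCL4 and XCL1) and 6 higher in BIX (IFNG, CCL3, CCL4, CCL5, LTA and LTB), 9 had the same sign in both tables and none was called lower in either. The direct test separated IFNG and LTA. The exocytosis machinery showed no common direction: of 15 paired, 4 had a KO change above and 5 below the BIX change. UNC13D (Munc13-4), which primes granules for fusion, changed by 0.33 ± 0.11 in KO and -0.60 ± 0.09 in BIX. STX11, its syntaxin partner, changed by -0.23 and 0.72.

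Of 22 activating and adhesion receptors, 5 were higher in KO and 3 higher in BIX, none was called in both, and the medians were 0.43 and 0.07. Of 14 inhibitory receptors, 5 were higher and 2 lower in KO, and 3 were higher and 1 lower in BIX. By sign, 3 of the 14 were positive in both, 2 negative in both, 3 positive in KO alone and 6 positive in BIX alone. KLRG1, KLRC1 and CD160, given next, had a positive KO and a negative BIX change and do not stand for the list. KLRG1, an inhibitory receptor of mature NK cells, stood at 45.4, 50.5 and 43.1 CPM in WT and at 94.2, 90.6 and 82.6 CPM in KO, and at 2.74, 2.22 and 2.31 CPM in DMSO and 1.89, 1.76 and 1.95 CPM in BIX. The KO change of 0.95 ± 0.10 (adjusted p = 0.0162) and the BIX change of -0.37 ± 0.24 (adjusted p = 0.244) differed by 1.32 ± 0.18 (adjusted p = 0.000226). KLRC1 (NKG2A) changed by 0.83 ± 0.21 and -0.38 ± 0.06, and CD160, which binds HVEM and MHC class I, by 1.07 ± 0.19 and -0.21 ± 0.09.

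Of 23 late maturation factors, 21 had a positive KO change and 14 a positive BIX change. By sign, 14 were positive in both, 2 negative in both and 7 positive in KO and negative in BIX. In KO 4 were called higher, in BIX 4 higher and 3 lower, and 1 was higher in both. The direct test put the KO change above for 6 and below for 2. TBX21, ID2, EOMES and KLF2, given next, were positive in KO and negative in BIX, unlike most of the list. TBX21 (T-bet), the factor of terminal NK maturation, stood at 284, 443 and 292 CPM in WT and at 546, 707 and 644 CPM in KO. It stood at 226, 244 and 227 CPM in DMSO and at 171, 162 and 173 CPM in BIX. KO was above WT and BIX below DMSO in every library, with changes of 0.90 ± 0.19 (adjusted p = 0.0368) and -0.46 ± 0.06 (adjusted p = 7.61e-05, under the minimum fold change). The difference was 1.36 ± 0.20 (adjusted p = 0.000347). ID2, which holds innate lymphocytes in their lineage, changed by 0.89 ± 0.14 and -0.35 ± 0.07. EOMES, the sister factor of T-bet, changed by 0.74 ± 0.27 (adjusted p = 0.0962) and -0.17 ± 0.06, and IL2RB, the IL-15 and IL-2 receptor chain, by 0.74 ± 0.28 (adjusted p = 0.104) and -0.16 ± 0.06. KLF2, a factor of lymphocyte quiescence and trafficking, changed by 0.36 in KO and -1.14 ± 0.23 in BIX. All 14 paired genes of a longer pan-NK list had a positive KO change, with a median of 0.76, while 10 of the 14 had a positive BIX change, with a median of 0.24.

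Some signalling parts downstream of NK receptors were lower in BIX and not in KO. Of 31 adaptors and proximal kinases, none was called lower in KO and 2 were higher, 6 were lower in BIX, and the direct test put the KO change above the BIX change for 10 and below for none. With any 1 mouse library left out the count above was 8 to 13 and the count below 0 to 3. LAT, the adaptor that assembles signalling complexes, changed by 0.30 ± 0.10 and -0.73 ± 0.13, FYN by 0.37 and -0.66, and ORAI2, a calcium channel subunit, by 0.26 ± 0.11 and -1.0 ± 0.06. The actin list went likewise: 7 of 36 were lower in BIX and none was called in KO, and the difference was called above for 7 and below for 1. ACTB changed by 0.16 in KO and -0.66 in BIX, CORO1A by 0.09 and -0.81, and MYO1F by 0.34 and -0.84. CISH, the feedback inhibitor of IL-15 signals, stood at 15.1, 13.9 and 12.4 CPM in WT and 32.3, 27.3 and 26.3 CPM in KO, and at 303, 304 and 303 CPM in DMSO and 257, 235 and 271 CPM in BIX. Its changes of 1.05 ± 0.13 and -0.25 ± 0.07 differed by 1.31 ± 0.13 (adjusted p = 1.85e-05).

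The immediate early and NF-kB genes moved in BIX with little counterpart in KO. Of 28 immediate early and activation factors, 18 were higher and 1 lower in BIX and 1 was higher in KO, with medians of 0.74 and 0.05. The KO change was below the BIX change for 15 by the direct test, and for 14 or 15 with any 1 mouse library left out. NR4A1, an orphan nuclear receptor induced by receptor signals, stood at 197, 219 and 181 CPM in WT and 201, 194 and 167 CPM in KO, and at 0.524, 1.05 and 0.828 CPM in DMSO and 4.08, 4.23 and 4.01 CPM in BIX. NR4A1 met the CPM minimum in NK92MI through its BIX values. PPP1R15A, the phosphatase subunit that ends the integrated stress response, changed by -0.07 ± 0.10 in KO and 1.84 ± 0.10 in BIX. Of 28 NF-kB subunits and regulators, none was called in KO, 11 were higher and 3 lower in BIX, and the KO change was below the BIX change for 12 and above for 3. With any 1 mouse library left out, 11 or 12 were below. NFKB2, the p100 subunit of the non-canonical pathway, stood at 192, 159.6 and 202 CPM in WT and 175, 157 and 143 CPM in KO, and at 73.9, 81.5 and 72.4 CPM in DMSO and 211, 209 and 225 CPM in BIX.

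Pairs with the smallest p of the difference and the KO change below the BIX change were MVP, MYB, OPTN, BIRC3 and ICAM1. MVP, the main protein of vault particles, stood at 137, 99.6 and 126 CPM in WT and 88.5, 86.7 and 88.3 CPM in KO, and at 2.74, 3.74 and 3.61 CPM in DMSO and 20.9, 21.4 and 26.9 CPM in BIX. Its changes of -0.46 ± 0.12 and 2.78 ± 0.16 differed by -3.24 ± 0.20 (adjusted p = 1.1e-06). BIRC3 (cIAP2), a ubiquitin ligase that NF-kB induces, changed by -0.30 ± 0.08 and 1.39 ± 0.08. ICAM1, the ligand of LFA-1, changed by 0.24 ± 0.10 and 1.93 ± 0.08, from 34.5 to 41.3 CPM in DMSO to 132 to 144 CPM in BIX. SUCNR1, the succinate receptor, had the largest BIX change of all pairs, 4.31 ± 0.22, with a KO change of -0.65 ± 0.36 that was not called. CCR7, the receptor that leads lymphocytes to lymph nodes, stood at 37.9 to 45.8 CPM in DMSO and 185 to 209 CPM in BIX, and at 63.5 to 96.4 CPM in WT and 29.6 to 62.2 CPM in KO.

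TNFRSF9 and IFNG, both higher in both experiments and both further in BIX, are shown with the 300 bases around their human transcription start (250 before and 50 after it), from RefSeq on GRCh38.p14, to let their promoters be read beside the NF-kB and immediate early results. Both lie on the minus strand, TNFRSF9 at chr1:7940790-7941089 and IFNG at chr12:68159691-68159990, and are written 5′ to 3′ as transcribed. Capitals mark a match on either strand to the NF-kB consensus or to TGANTCA, the AP-1 site bound by FOS and JUN family factors.
TNFRSF9: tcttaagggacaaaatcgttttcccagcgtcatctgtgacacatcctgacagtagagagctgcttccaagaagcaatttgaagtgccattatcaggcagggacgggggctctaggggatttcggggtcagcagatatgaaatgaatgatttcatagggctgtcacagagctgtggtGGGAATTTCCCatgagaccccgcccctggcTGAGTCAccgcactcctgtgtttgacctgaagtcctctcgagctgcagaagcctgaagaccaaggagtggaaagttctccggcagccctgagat
IFNG: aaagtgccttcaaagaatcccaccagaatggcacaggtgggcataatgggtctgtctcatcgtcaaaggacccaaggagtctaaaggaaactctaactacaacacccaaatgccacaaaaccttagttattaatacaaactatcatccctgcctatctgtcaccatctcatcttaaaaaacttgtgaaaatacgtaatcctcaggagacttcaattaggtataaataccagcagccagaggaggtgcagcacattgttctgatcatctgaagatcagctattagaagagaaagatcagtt
The TNFRSF9 window holds 2 overlapping NF-kB matches, 1 on each strand, and 1 AP-1 match, and that of IFNG holds neither, which says only that these letters are not in this window. Of 35116 human promoter windows in the table, 5.91% held the NF-kB consensus and 7.71% the AP-1 site. RefSeq windows were found for 6938 of the 8254 pairs, and many genes have more than 1. The NF-kB consensus was in 6.74% of the 10179 windows of all pairs, in 12.3% of the 741 windows of pairs higher in BIX, in 7.54% of the 597 windows of pairs lower in BIX and in 11.2% of the 205 windows of pairs higher in KO. The AP-1 site was in 4.77% of the windows of all pairs, 6.75% of those higher in BIX, 4.52% of those lower in BIX and 4.39% of those higher in KO. Of the 16 windows found for 15 of the 19 pairs higher in both, the class of the genes printed above, 6 held the NF-kB consensus (37.5%) and 3 the AP-1 site (18.8%). A match is a description of the sequence and not evidence of binding, the windows are human only, and no test was made.

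Many cell cycle genes were lower in KO, with few and mixed calls in BIX. Of 56 paired genes 24 were lower and 1 higher in KO, and 4 were higher and 2 lower in BIX, with medians of -0.48 and -0.08. CDK1, the kinase that starts mitosis, stood at 15.6, 12.1 and 16.7 CPM in WT and 9.93, 8.08 and 7.13 CPM in KO, and at 233, 222 and 237 CPM in DMSO and 287, 265 and 281 CPM in BIX. UBE2C, a ubiquitin carrier of mitotic exit, changed by -0.84 ± 0.10 and -0.01 ± 0.09. The KO change was below the BIX change for 18 of the 56, and for 15 to 21 with any 1 mouse library left out, and above it for CCND3 alone. CCND2 was the only member higher in both and KIF20A the only member lower in both, while RRM2 went opposite ways. UHRF1, which reads H3K9 methylation and guides DNA methylation in dividing cells, stood at 32.8 to 33.4 CPM in WT and 21.1 to 23.4 in KO, a change of -0.56 ± 0.09, with 0.06 ± 0.07 in BIX. CDCA7, a cell cycle gene of the HELLS complex, changed by -0.87 ± 0.19 and -0.30 ± 0.06. WIZ, a zinc finger partner of EHMT2, changed by 0.02 ± 0.11 and -0.50 ± 0.07.

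Lysosome and autophagy genes leaned down in KO and up in BIX. Of 50 paired, 5 were lower and none higher in KO, 9 were higher and none lower in BIX, and the medians were -0.22 and 0.24. The KO change was below the BIX change for 21 and above for 1, and below for 18 to 28 with any 1 mouse library left out. OPTN and GABARAPL1 were called in both, in opposite directions. GABARAPL1, of the family that coats autophagosomes, stood at 62.5, 48.9 and 57.8 CPM in WT and 39.4, 33.2 and 35.4 CPM in KO, and at 35.4, 44.1 and 35.5 CPM in DMSO and 68.3, 59.4 and 73.5 CPM in BIX. MAP1LC3B and SQSTM1, the autophagosome marker and a cargo receptor, changed by 0.01 and -0.07 in KO and by 0.77 and 0.64 in BIX. PSAP, a lysosomal activator protein also abundant in macrophages, changed by -0.86 ± 0.24 (adjusted p = 0.0533) and 0.64 ± 0.08. Many lysosomal genes are high in macrophages, and the macrophage sums above were lower in every KO library than in every WT library. The part of macrophage transcripts in these KO changes was not tested.

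**Figure D5:**
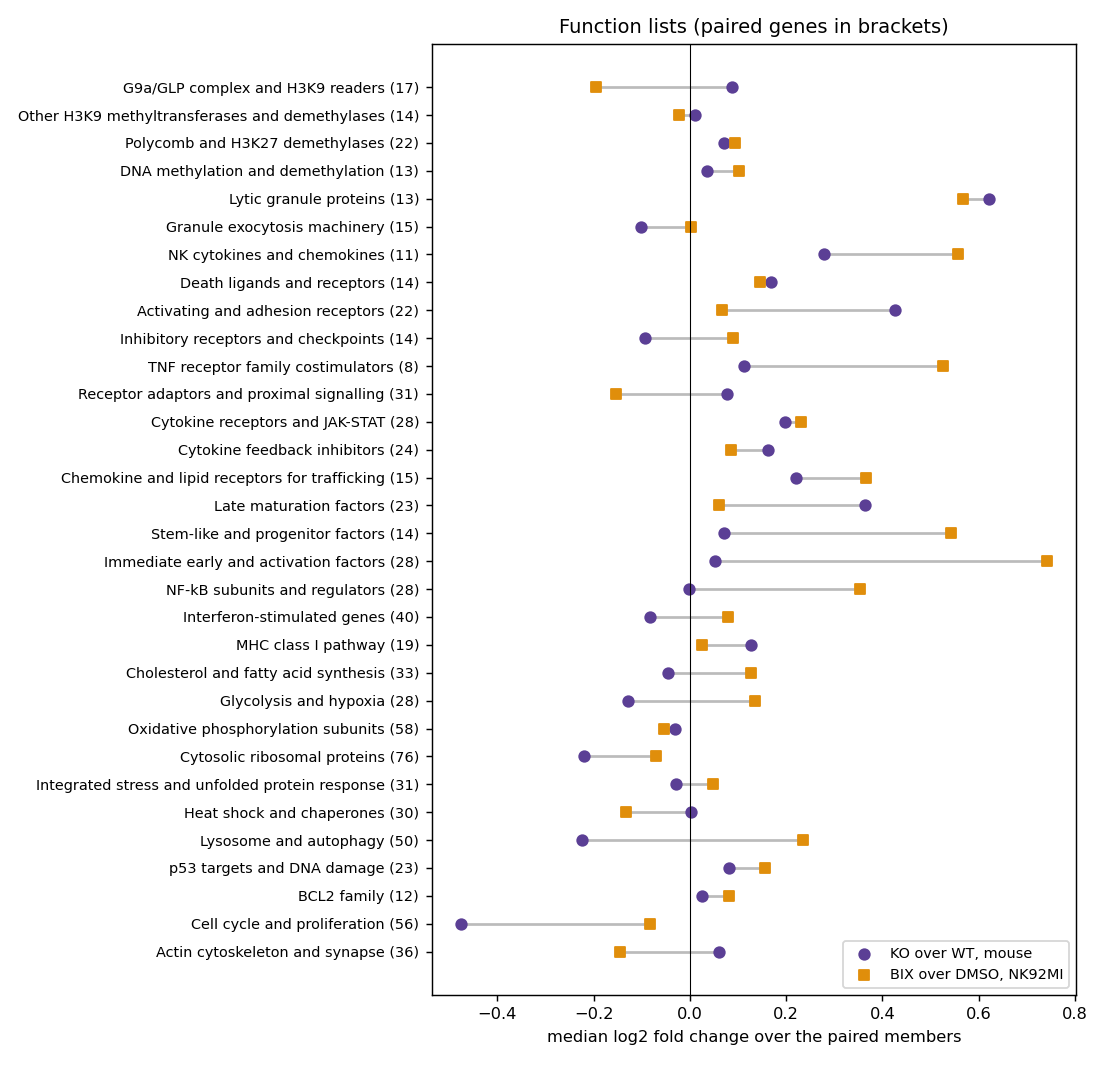
Each row is a function list with the number of its paired genes; the circle is the median log2 fold change of KO over WT and the square that of BIX over DMSO. The lytic granule list lies at 0.62 and 0.57, the immediate early list at 0.05 and 0.74, the cell cycle list at -0.48 and -0.08 and the lysosome list at -0.22 and 0.24.

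Of 28 glycolysis and hypoxia genes, 2 were lower in KO and 3 higher in BIX, and the KO change was below the BIX change for 12 and above for 1. PFKFB3, which sets the level of a glycolysis activator, changed by -0.27 and 0.83. Of 76 cytosolic ribosomal proteins, 74 had a negative KO change with a median of -0.22, against 54 negative BIX changes with a median of -0.07, but 1 was called in KO and 3 in BIX. Of 58 oxidative phosphorylation subunits none was called in KO, and 2 were higher and 3 lower in BIX. Of 33 cholesterol and fatty acid synthesis genes, 3 were higher and 1 lower in KO and 2 higher and 1 lower in BIX. Of 40 interferon-stimulated genes, 2 were higher and 1 lower in KO and 4 higher and 1 lower in BIX, and GBP4 alone was called in both. RSAD2 (viperin) changed by -1.22 ± 0.35 in KO, not called, and 1.27 ± 0.07 in BIX. Of 31 genes of the integrated stress and unfolded protein responses, 1 was lower in KO, and 7 were higher and 4 lower in BIX.

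The remaining lists were as follows, many of them short and to be read beside the shares of all pairs given above. TNF receptor family costimulators had 3 of 8 higher in KO and 4 higher and 1 lower in BIX, and cytokine receptors and JAK-STAT genes 2 of 28 higher and 1 lower in KO and 7 higher and 1 lower in BIX. Stem-like and progenitor factors had 1 of 14 higher and 2 lower in KO, and 6 higher and 1 lower in BIX. In KO, 4 of 24 feedback inhibitors and 1 of 14 death ligands and receptors were higher, against 6 and 5 in BIX, where 1 feedback inhibitor was lower. Trafficking receptors had 1 of 15 higher and 1 lower in KO and 4 higher and 2 lower in BIX. Of 19 MHC class I genes, 1 was higher and 1 lower in KO and 2 were higher and 1 lower in BIX. Heat shock genes had none of 30 called in KO, and 1 higher and 2 lower in BIX. The p53 list had 1 of 23 higher in KO and 6 in BIX, and the BCL2 family none of 12 in KO and 3 in BIX. Among chromatin lists, the other H3K9 enzymes had none of 14 called in KO and 1 lower in BIX, Polycomb none of 22 in KO and 1 higher in BIX, and DNA methylation none of 13 in KO and 2 higher and 1 lower in BIX. Germ-line genes, a known EHMT2 target class in other cells, had 5 of 37 paired, of which none was called in KO and 1 was higher in BIX.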

How the data were processed

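RNA-seq libraries came from sorted mouse splenic NK cells (3 KO, 3 WT) and from NK92MI cells under BIX-01294 (3) or DMSO (3). According to the methods and processing notes, the authors trimmed reads with fastp 0.23.4, aligned them with STAR 2.7.11b to GRCm38 or GRCh38 and counted them with HTSeq 2.0.3. What the authors deposited are unnormalised read counts, 1 row for each gene symbol. The annotation release and strand setting are not given in the sources used here, so reads of overlapping or antisense genes cannot be told apart. The human control columns could not be tied to single DMSO samples by name and therefore formed the DMSO group as a whole, lettered a to c. Nothing in the labels ties samples to separate cultures or animals, and p-values measure the spread between these libraries.

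Each table was fitted alone in R 4.3.3 with edgeR 4.0.16 (quasi-likelihood test, TMM, filterByExpr) over 13189 mouse and 12727 human genes, two-sided, with Benjamini-Hochberg adjustment. Genes were called at adjusted p below 0.05 if their log2 fold change also exceeded 0.5 in size. The study's own threshold of 0.01 was not used because no mouse gene passes it by edgeR. The difference (KO minus WT) minus (BIX minus DMSO) was tested in 1 edgeR fit over the 12 libraries of the kept pairs, with the effective library sizes of each table as offsets. Errors are standard errors of log2 fold changes. Scripts were tested on simulated data. At these depths 3 counts equal 0.0801 to 0.181 CPM, so counting error is small except for the lowest genes. An exact permutation test of 3 against 3 libraries cannot go below p = 0.1.

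Pairs, function lists and thresholds were chosen with earlier results of these data known. Named genes are the 8 pairs of each direction class with the largest smaller change, list members called in both tables, up to 3 of a list called in 1 table with a difference, the 5 smallest p of the difference in each direction, and 13 genes fixed by name, of which ITGAM (listed more than once in the mouse table) and CD27 (0.156 CPM in NK92MI) were not paired or kept. Other list members were named after their values were seen. A gene of the class lower in KO and higher in BIX is counted but not reported by name here. More than 1 row carried the same symbol for 41 mouse and 15 human symbols, and 27 mouse symbols read as dates. Alternatives were DESeq2 1.42.0 and its size factors, library totals, no filter, a mean CPM of 5, limma 3.58.1 (voom), other thresholds, the pairs without markers of other cell types, a replicate block and each library left out. Positions come from GENCODE annotations of the same builds, which may not be the releases used by the authors.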

Additional observations from a re-analysis of the deposited data

Results flagged for a closer look

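The pairs with the smallest p of the difference between the KO change and the BIX change, 5 in each direction, were singled out because the same contrast gave different effects in the 2 experiments by a direct test (edgeR, 12 libraries). The KO change lay above the BIX change by 1.757 for GSAP, 1.388 for SLA, 4.063 for PHLDB2, 1.303 for PXN and 1.247 for SNAP47 on the log2 scale. It lay below, with differences of -3.238 for MVP, -1.972 for MYB, -2.14 for OPTN, -1.689 for BIRC3 and -1.686 for ICAM1. GSAP, SNAP47, MYB and OPTN were called in both experiments with opposite directions, PHLDB2 was called in KO alone, and SLA, PXN, MVP, BIRC3 and ICAM1 in BIX alone. PHLDB2 met the CPM minimum in the mouse only through its KO values. The call of the difference held for all 10 under the 17 or 18 alternatives that gave it a value, each mouse library left out included, whereas the KO calls of GSAP, SNAP47, MYB, OPTN and PHLDB2 were lost without KO replicate 2 and without KO replicate 3, and the BIX call of SNAP47 without BIX replicate 2 and without DMSO replicate b.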

How the results depend on the processing

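The BIX counts moved by less than 1.5 times under every alternative except the 1 without a minimum fold change, and the counts of the direct test of the difference under every alternative run, while the mouse counts moved by more. With any 1 library left out, genes higher in KO numbered 0 to 905 (main 372) and genes lower in KO 0 to 1835 (main 882). Over the same settings the pairs higher in both numbered 0 to 50, lower in both 0 to 59, higher in KO and lower in BIX 0 to 65, and lower in KO and higher in BIX 0 to 100, with 0 mouse genes called without KO replicate 2 or without KO replicate 3, few without WT replicate 1 or 3, and the largest counts without WT replicate 2. Pearson's r ran from -0.06411 to -0.02975, Spearman's rho from -0.03859 to 0.006979, above 0 without KO replicate 2 alone, and the share of pairs of the same sign from 48.48% to 50.54%.

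At an adjusted p under 0.01, 0 genes were higher and 0 lower in KO, so 0 pairs stood in each of the 4 classes. DESeq2 at 0.05 called 570 genes higher and 1669 lower in KO and put 86 pairs in the class lower in KO and higher in BIX. DESeq2 at 0.01 kept 16 of the 19 pairs higher in both, 24 of the 35 lower in both, 18 of 23 and 44 of 52 in the opposite classes. Without a minimum fold change 585 genes were higher in KO, 2348 higher and 2344 lower in BIX, and the 4 classes held 88, 96, 86 and 104 pairs. A minimum mean CPM of 5 left 23 pairs lower in both.

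With the replicate number as a block in the mouse, 573 genes were higher and 1572 lower in KO, and the classes held 29, 53, 41 and 92 pairs. Deviations of same-numbered KO and WT libraries correlated at 0.28, 0.352 and -0.188, so not every library went best with its own number, and the numbers were taken as names only. The cause of these moves was not tested.

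Of 6621 values of named genes under alternatives, 41 had the opposite sign to the main one, all for changes not called in either (smallest adjusted p 0.541), and no called change turned. Mouse calls were lost in 286 values, BIX calls in 53 and calls of the difference in 69. Depth limits genes near 1 CPM in NK92MI, such as ADORA2A, WDFY4 and NR4A1, whose values rest on few counts.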
